A study of Homo sapiens with 3 samples.

Results

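The genes described here run the mitochondrial oxidation of fatty acids and the handling of ketone bodies, and they were followed in Caco-2 cells after knockdown of the transcript OCC-1. The members were fixed as a list of 36 gene symbols, and every probe set that the platform annotation ties to exactly 1 of these symbols was taken. This gave 96 of the 49395 probe sets on the array, for 33 of the 36 genes. ACSL3, ACAD11 and ACOT2 had no probe set with a single symbol and were not analysed here. Caco-2, a cell line from a human colorectal tumour, can acquire enterocyte features in culture. The series holds 3 arrays of total RNA. Line 1 carried the short hairpin RNA shOCC-1-1 (n = 1 array), line 2 carried shOCC-1-2 (n = 1 array), and the control carried a non-target hairpin, shCTRL (n = 1 array). All 3 lines had been transduced with lentivirus, held in medium with 20% serum, selected with puromycin (1 µg per ml, 5 days) and left without the drug for 24 h, so the control shares the virus and the selection.

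Long-chain fatty acids are activated to acyl-CoA by synthetases on outer membranes and enter the mitochondrial matrix through the carnitine shuttle. In the matrix they are shortened in repeated rounds of dehydrogenation, hydration, a further dehydrogenation and thiolysis. Electrons from the first step pass through electron transfer flavoprotein to the respiratory chain, and the acetyl-CoA can be burned or, in liver and to some extent in gut epithelium, turned into ketone bodies. The nuclear receptor PPAR-alpha is a main transcriptional regulator of these genes.

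Total RNA was read as 1 intensity per probe set and array, with array medians of 182.5 in line 1, 183.6 in line 2 and 185.5 in the control. The targeted gene OCC-1 (C12orf75) had an intensity of 518 in line 1 and 397 in line 2, against 1219 in the control. Its log2 difference was -1.43 ± 0.14 (SE), with a limma adjusted p of 0.0011. All 10 epithelial markers listed were above the intensity filter described below. Of their 26 probe sets 7 rose in the same limma fit (26.9%, against 11.4% of all probe sets). These were 3 of EPCAM and others of CDH1 and KRT8. A further 2, of FABP1, an enterocyte fatty acid binding protein, fell (7.69%, against 3.97% of all probe sets). Summed over each gene's brightest probe set, the epithelial markers had 37378 in line 1 and 37598 in line 2, against 35232 in the control. Of the fibroblast, leukocyte and endothelial markers 5 of 9, 3 of 8 and 1 of 6 passed the filter. Their sums of brightest probe sets also include markers below the filter. The sums were 1780, 2456 and 889 in line 1, 1886, 2533 and 932 in line 2, and 1855, 2784 and 966 in the control. Most of the leukocyte sum was LCP1, with 1592 in line 1, 1722 in line 2 and 1909 in the control. The only limma call in these lists was 1 of 4 leukocyte probe sets, also of LCP1, which fell (3.97% of all probe sets fell). The array's 23 background control probe sets are ordered by their number of G and C bases. Their log2 differences from control lay between -0.37 and 0.06 in line 1 and between -0.23 and 0.04 in line 2. Both lines were slightly above control at 3 to 9 such bases and below it at 10 to 25. At 24 bases the differences were -0.27 in line 1 and -0.23 in line 2. Intensity ratios of 3′ over 5′ control probe sets for beta-actin were 7.13 in line 1, 7.38 in line 2 and 6.15 in the control. In the same order those for GAPDH were 1.05, 1.08 and 1.10. For the control named HUMISGF3A they were 9.61, 9.31 and 8.11, and for HUMRGE 1.56, 1.67 and 1.76. The part of these shifts in the results below was not tested.

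Knockdown of OCC-1 left most of the fatty acid oxidation genes near the control, while ACADM and HADHB were higher with both hairpins. A probe set entered the comparison when its mean log2 intensity over the 3 arrays was at least 7.52, the median of all probe sets. Of the 96 member probe sets 58 passed, and because a pair for ACAD9 held identical values these count as 57, from 28 genes. The other 38 probe sets were dimmer. In limma, called at an adjusted p of at most 0.05 over all 24647 probe sets past the filter, 9 member probe sets rose, 1 fell and 47 were not called. The rising ones belonged to ACADM, HADHB, ACSL4 and ACADSB and the falling one to ACAD9. Of 21 probe sets whose suffix (_s_at or _x_at) marks probes that may match further transcripts 5 rose, and of the 36 others 4 rose. Over all probe sets 11.4% rose and 3.97% fell (15.4% in either direction), so the members' shares of 15.8% and 1.75% lay near the background. After quantile normalization the calls over all probe sets were 2731 higher and 1619 lower, against 2818 and 978 as deposited. After cyclic loess 10 member probe sets rose and 3 fell, where 14.9% of all probe sets rose and 5.58% fell.

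No member probe set reached 1.5-fold from control, in both lines or in either line alone. Over all probe sets past the filter 1.43% were at least 1.5-fold higher and 0.101% at least 1.5-fold lower in both lines (1.53% in either direction). The highest ratio to control among the members was 1.46 and the lowest 0.71. The median log2 difference over the 57 probe sets was 0.008 in line 1 and 0.002 in line 2, against -0.015 and -0.017 over all probe sets. Both lines lay above the control for 26 member probe sets (background 37.8%), below it for 25 (background 44.6%) and on opposite sides for 6. The p-values rest on the spread of the arrays of 2 different hairpins alone, and limma assumes that the lone control varies like them. An exact permutation test of 2 arrays against 1 cannot give a p below 0.333. In RNA from whole cultures, fewer cells of a type and less RNA per cell cannot be told apart.

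**Figure D1:**
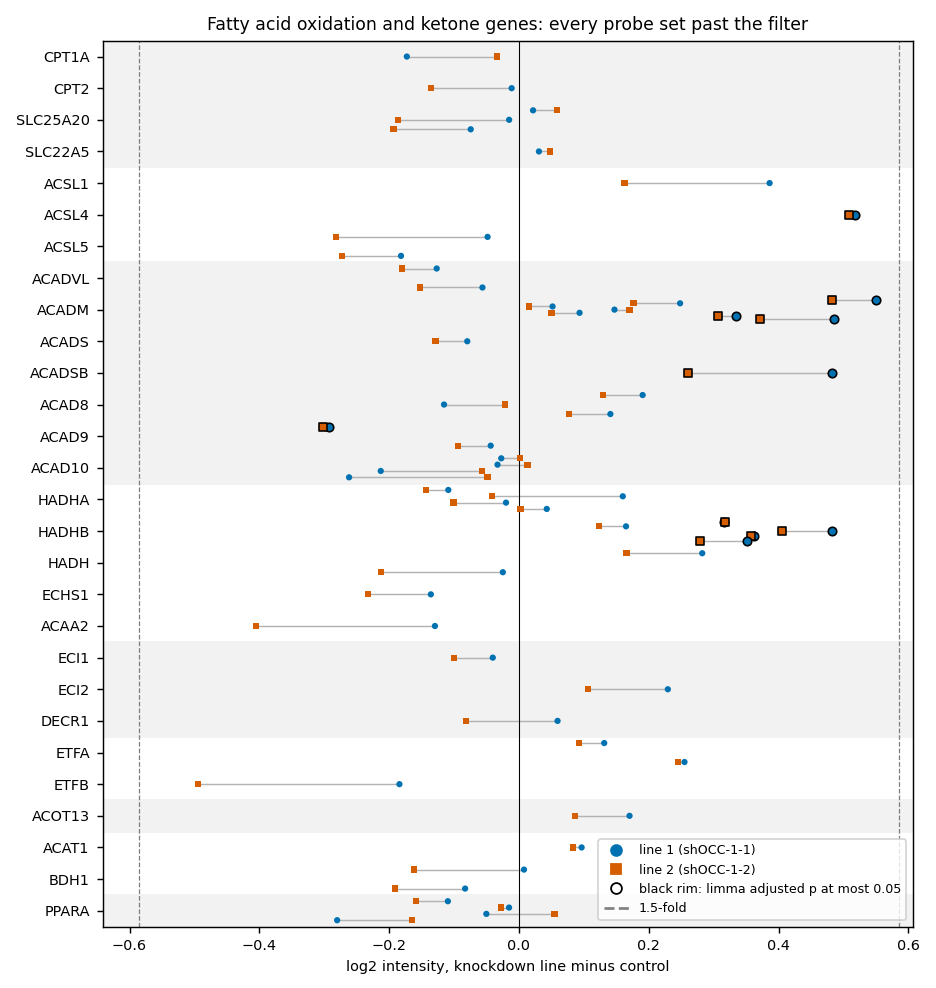
Each row pair of a blue circle (line 1) and an orange square (line 2) is 1 probe set, placed by its log2 intensity minus that of the control; genes run down the page in the order of their roles, shaded by role. Symbols with a black rim passed limma, and they belong to ACSL4, ACADM, ACADSB, ACAD9 and HADHB; all lie inside the dashed 1.5-fold lines.

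HADHB rose and HADHA had no call, although both encode subunits of the mitochondrial trifunctional protein, the inner-membrane enzyme that carries out the last steps of the cycle on long-chain acyl-CoA. HADHA encodes the alpha subunit with hydratase and dehydrogenase activity, and HADHB the beta subunit with thiolase activity. The annotated starts of these genes face away from each other on chromosome 2, with 306 bases between them in GRCh38.p14, HADHA running on the minus strand from position 26244632 and HADHB on the plus strand from position 26244939. The 250 bases before the HADHB start, at chr2:26244689-26244938 on the plus strand, are printed because both genes are read outward from this stretch. Capitals mark the 194 bases that also lie in the 250 bases before the HADHA start. The sequence is RefSeq's.
HADHB: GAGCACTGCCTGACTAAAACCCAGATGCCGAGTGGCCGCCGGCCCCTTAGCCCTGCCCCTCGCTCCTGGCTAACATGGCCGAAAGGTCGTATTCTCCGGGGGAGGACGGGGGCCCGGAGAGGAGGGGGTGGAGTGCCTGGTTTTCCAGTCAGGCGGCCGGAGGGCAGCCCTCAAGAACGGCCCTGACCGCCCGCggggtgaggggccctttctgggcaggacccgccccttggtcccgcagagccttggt

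All 5 HADHB probe sets were above control in both lines, and 4 of them rose in limma. The brightest had intensities of 2333 in line 1 and 2334 in line 2, against 1873 in the control, a log2 difference of 0.32 ± 0.08 (SE; limma adjusted p = 0.026). The largest HADHB difference was in a probe set with 1733 in line 1 and 1642 in line 2, against 1240 in the control (log2 difference 0.44 ± 0.08 SE; limma adjusted p = 0.0079). The hairpin arrays thus lay close together and both above the control.

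The other pair of HADHB probe sets that rose had 832 in line 1 and 829 in line 2, against 647 in the control, and 713 and 678, against 559. Of the HADHB probe sets that rose, only this last one has neither suffix, _s_at nor _x_at. The fifth HADHB probe set had 1628 in line 1 and 1582 in line 2, against 1453 in the control, and was not called (limma adjusted p = 0.24). With the mean of all HADHB probe sets as 1 value per gene the log2 difference was 0.32 (limma adjusted p = 0.028).

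None of the 4 HADHA probe sets was called. The brightest had 1938 in line 1 and 1892 in line 2, against 2090 in the control (log2 difference -0.13 ± 0.08 SE; limma adjusted p = 0.30). The next had 1589 in line 1 and 1381 in line 2, against 1422 in the control, so the lines fell on either side. The dimmer pair had 501 and 473, against 507, and 193 and 188, against 187. In log2 differences the HADHA probe sets ranged from -0.14 to 0.16 over the 2 lines and those of HADHB from 0.12 to 0.48. Within each line every HADHB probe set was above every HADHA probe set. In line 1 this order was nearly a tie, with the lowest of HADHB at 0.165 and the highest of HADHA at 0.160. The same values in line 2 were 0.124 and 0.002. The difference between the subunits was not itself tested.

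**Figure D2:**
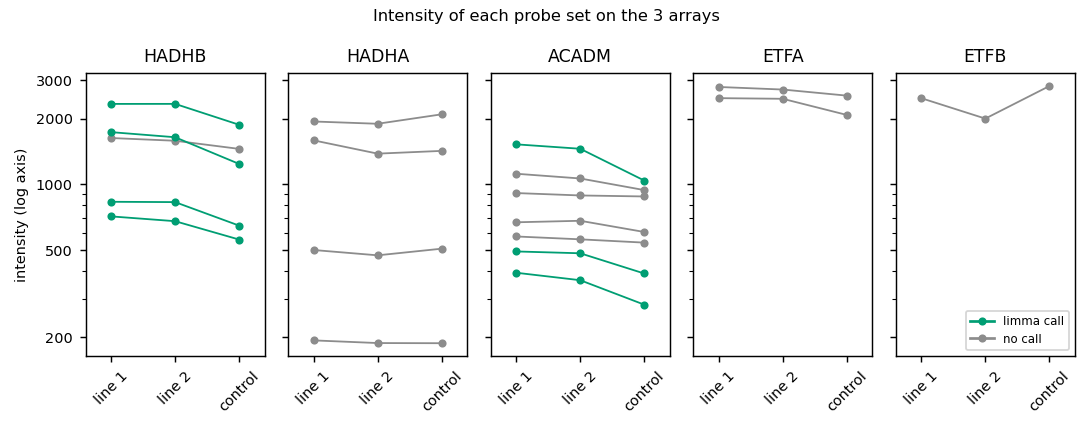
Intensity on a log axis of every probe set past the filter for HADHB, HADHA, ACADM, ETFA and ETFB; each line joins the values of 1 probe set on the arrays of line 1, line 2 and the control, green where limma called it. The lines of HADHB and ACADM drop toward the control at the right, by 0.12 to 0.48 for HADHB and by as little as 0.02 for ACADM on the log2 scale, while those of HADHA show no common direction.

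ACADM encodes the medium-chain acyl-CoA dehydrogenase, whose inherited loss is a classic disorder of fatty acid oxidation. Its 250 bases before the annotated start, at chr1:75724459-75724708 on the plus strand of GRCh38.p14, are shown because all ACADM probe sets lay above control in both lines. There are no capitals because no searched motif was found.
ACADM: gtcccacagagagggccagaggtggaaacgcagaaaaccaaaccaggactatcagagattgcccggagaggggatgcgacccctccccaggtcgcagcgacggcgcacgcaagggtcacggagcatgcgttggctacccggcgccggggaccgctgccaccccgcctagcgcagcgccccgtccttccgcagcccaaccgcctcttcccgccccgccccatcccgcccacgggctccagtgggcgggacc

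All 7 ACADM probe sets were above control in both lines, but 3 of them rose in limma. The brightest had 1524 in line 1 and 1454 in line 2, against 1041 in the control (log2 difference 0.52 ± 0.08 SE; limma adjusted p = 0.0042), or 146% and 140% of control. Its suffix is _s_at, which the other ACADM probe sets that rose do not have. The other pair that rose had 394 in line 1 and 364 in line 2, against 282 in the control (log2 difference 0.43), and 493 and 484, against 391 (log2 difference 0.32). Both hairpins gave values above the control on each of the 3 probe sets.

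The 4 remaining ACADM probe sets had smaller log2 differences, from 0.03 to 0.21 for the mean of both lines. One of them, with 912 in line 1 and 889 in line 2, against 880 in the control, lay at 104% and 101% of control. Probe sets that read the same gene thus ranged from near no difference to almost 1.5-fold. With the mean of all ACADM probe sets as the gene's value, the log2 difference was 0.25 and was no longer called (limma adjusted p = 0.051). Among the 646 genes with at least 5 probe sets past the filter, 11.1% had 3 or more that rose in limma, and 10.7% had all of them above control in both lines. ACADM and HADHB, the only members with that many probe sets, did both. The share of the 646 genes that did both is not given here.

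The other acyl-CoA dehydrogenases did not move together. ACADSB, the enzyme for short and branched chains that serves isoleucine breakdown, rose, with 436 in line 1 and 374 in line 2, against 312 in the control (log2 difference 0.37 ± 0.10 SE; limma adjusted p = 0.04). This call was lost with the brightest probe set per gene (limma adjusted p = 0.06) and with the mean of its probe sets (limma adjusted p = 0.092). ACAD9, which also serves as an assembly factor of respiratory complex I, fell on its brightest probe set, with 462 in line 1 and 459 in line 2, against 566 in the control (log2 difference -0.30 ± 0.08 SE; limma adjusted p = 0.033).

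The other ACAD9 values past the filter were 406 in line 1 and 392 in line 2, against 419 in the control. With the mean of all ACAD9 probe sets the difference was -0.10 (limma adjusted p = 0.32). ACADVL, the very-long-chain enzyme of the inner membrane, had 1246 in line 1 and 1200 in line 2, against 1361 in the control (limma adjusted p = 0.22), and its second probe set past the filter was also slightly below control in both lines. ACADS, the short-chain enzyme, lay at 94.6% and 91.5% of control. ACAD8, the isobutyryl-CoA dehydrogenase of valine breakdown, and ACAD10 had no called probe set among 3 and 4, with log2 differences of -0.07 to 0.16 and -0.16 to -0.01. ACADL, the long-chain enzyme, had 4 probe sets and all were dimmer than the filter, at 75.9 to 108 on every array.

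For entry into the pathway, 1 of 4 synthetase probe sets past the filter rose, that of ACSL4, and 0 of 6 for the carnitine shuttle (background 11.4%). Such small counts allow no contrast between the 2 groups. ACSL4, which prefers arachidonic acid and other polyunsaturated chains, rose, with 893 in line 1 and 887 in line 2, against 624 in the control (log2 difference 0.51 ± 0.08 SE; limma adjusted p = 0.0038). This ACSL4 probe set has the suffix _s_at. The other 2 ACSL4 probe sets were below the filter, at 76.8 to 90.1 over all arrays, and showed no difference beyond 0.04 in log2. With its probe sets averaged ACSL4 fell below the filter, so that setting gives no call. ACSL1, the main synthetase of liver, fat and muscle, had 756 in line 1 and 647 in line 2, against 578 in the control, and was not called (limma adjusted p = 0.10) except after cyclic loess (limma adjusted p = 0.029).

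ACSL5, a synthetase abundant in the intestine, lay below control on both of its probe sets past the filter. The brighter had 859 in line 1 and 730 in line 2, against 888 in the control, and the dimmer 743 and 698, against 843. Neither was called (limma adjusted p = 0.31 and 0.094), although line 1 and line 2 were on the same side on each.

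Carnitine shuttle genes had no call among 6 probe sets. CPT1A, the outer-membrane carnitine acyltransferase that is inhibited by malonyl-CoA and commonly limits the pathway, had 230.3 in line 1 and 254 in line 2, against 259.7 in the control (limma adjusted p = 0.45). CPT2, its partner on the inner membrane, had 224 in line 1 and 205 in line 2, against 226 in the control (limma adjusted p = 0.59). The carnitine-acylcarnitine carrier SLC25A20 had 3 probe sets with log2 differences of -0.13 to 0.04, and the plasma membrane carnitine transporter SLC22A5 had 1 at 0.04.

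The soluble matrix enzymes of the later steps had no call as deposited. ECHS1, the short-chain enoyl-CoA hydratase, had 5005 in line 1 and 4678 in line 2, against 5499 in the control (log2 difference -0.18; limma adjusted p = 0.16). It was called lower only after cyclic loess (-0.25; limma adjusted p = 0.039). ACAA2, a thiolase that releases acetyl-CoA, had 1569 in line 1 and 1296 in line 2, against 1716 in the control (limma adjusted p = 0.14), so its lines differed more from each other than line 1 did from control. HADH, the short-chain hydroxyacyl-CoA dehydrogenase, gave different readings by probe set, with its brighter one at 122% and 112% of control and its dimmer at 98.3% and 86.3%.

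Of the auxiliary enzymes for unsaturated chains none was called. The isomerase ECI1 lay at 97.2% and 93.3% of control, the isomerase ECI2 at 117% and 108%, and the dienoyl-CoA reductase DECR1 at 104% and 94.5%. The thioesterase ACOT13 lay at 113% and 106%.

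The subunits of electron transfer flavoprotein differed in direction, without a call for either as deposited. ETFA, the alpha subunit, was above control on both probe sets. The brighter had 2788 in line 1 and 2714 in line 2, against 2546 in the control (limma adjusted p = 0.36). The dimmer had 2479 and 2462, against 2077 (log2 difference 0.25 ± 0.08 SE; limma adjusted p = 0.06), and was called with the stricter filter (limma adjusted p = 0.043) and with an intensity trend in the moderation (limma adjusted p = 0.035).

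ETFB, the beta subunit, was below control, with 2477 in line 1 and 1998 in line 2, against 2815 in the control (log2 difference -0.34 ± 0.12 SE; limma adjusted p = 0.089). As deposited it had the lowest mean difference of all 57 probe sets, and it was called lower after quantile normalization (-0.40; limma adjusted p = 0.043) and cyclic loess (-0.37; limma adjusted p = 0.016). Its lines were 0.31 apart in log2, nearly as far as their mean from the control. ETFDH, which passes the electrons on to ubiquinone, was below the filter, with its brighter probe set at 161 in line 1 and 149 in line 2, against 159 in the control.

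Ketone body enzymes showed no call. ACAT1, the mitochondrial acetoacetyl-CoA thiolase used in both making and burning ketone bodies, had 4835 in line 1 and 4793 in line 2, against 4523 in the control (log2 difference 0.09; limma adjusted p = 0.46). BDH1, which interconverts acetoacetate and hydroxybutyrate, had 477 in line 1 and 424 in line 2, against 475 in the control (limma adjusted p = 0.60). OXCT1, which activates acetoacetate for use as fuel, was dimmer than the filter, with 138 in line 1 and 115 in line 2, against 123 in the control on its brightest probe set.

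Among the regulators none was called, and PPARA alone passed the filter. PPARA, the gene of PPAR-alpha, had 465 in line 1 and 449 in line 2, against 501 in the control on its brightest probe set (limma adjusted p = 0.27), and its 4 probe sets past the filter had log2 differences of -0.22 to 0.002. PPARGC1A, a coactivator of mitochondrial genes, had 111 in line 1 and 110.4 in line 2, against 118 in the control. PDK4, the pyruvate dehydrogenase kinase that is a common readout of PPAR activity, had 108 in line 1 and 105 in line 2, against 104 in the control. PPARGC1A and PDK4 were below the filter on all their probe sets.

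Promoter windows of the members were searched for motifs of regulators of mitochondrial genes. RefSeq windows of 300 bases, 250 before and 50 after each annotated start, were at hand for 33 of the 36 genes, as 48 windows. All motifs were read on both strands. AGGTCA, the core element of nuclear receptors such as PPAR-alpha, was in 2 member windows (ACSL5 and ACAD10) and in 13.8% of all 35116 windows. The palindromic consensus of the factor NRF1 was in 4 (ACAD9, ACOT13, ETFB and PPARA) and in 5.78% of all windows. CCGGAAG, a core of ETS factors, was in 7 and in 10.3% of all windows. No matches of different motifs overlapped in the member windows. None of the 3 motifs was in the windows of HADHA, HADHB or ACADM, which says only that these letters are not there.

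The hairpin lines could also be set against each other, without the control. Line 2 was below line 1 on 45 of the 57 member probe sets, or 78.9%, where the background over all probe sets was 55.1%. By the median of each gene's probe sets, line 2 was below line 1 for 24 of the 28 genes (background 53.5%) and above it for 4. The median difference of line 1 minus line 2 was 0.05 in log2 for the members and 0.01 for all probe sets, and the SD was 0.10 and 0.11. ETFB (0.31), ACAA2 (0.28), ACSL5 (0.23 on its brighter probe set), ACSL1 (0.22) and ACADSB (0.22) had the widest differences with line 2 lower. By the median, CPT1A, SLC22A5, ACAD10 and PPARA were the 4 genes that went the other way, though the brightest probe set of PPARA was lower in line 2. After quantile normalization line 2 was below line 1 on 68.4% of the member probe sets and 47.8% of all, and after cyclic loess on 70.2% and 50.3%. With 1 array per hairpin this difference has no replicate check.

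**Figure D3:**
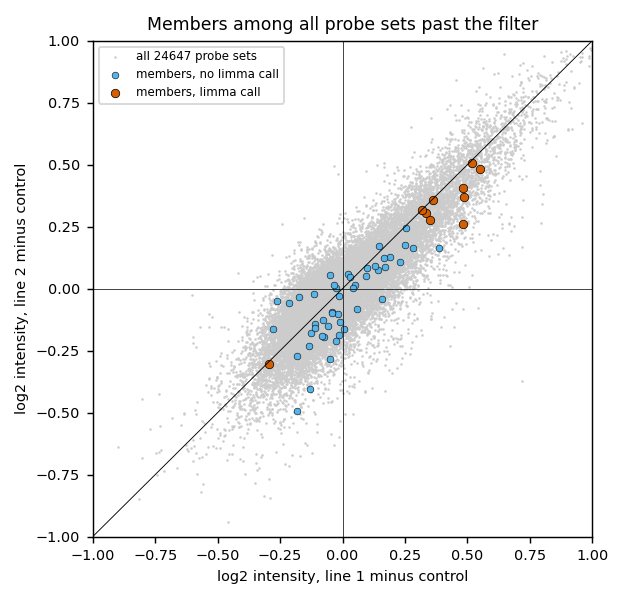
Log2 intensity minus control in line 1 (x axis) and line 2 (y axis) for all 24647 probe sets past the filter in grey, of which 38 lie beyond the axes, with the 57 member probe sets on top, orange where limma called them. Members follow the diagonal and mostly lie under it, as line 2 was below line 1 on 45 of 57.

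**Figure D4:**
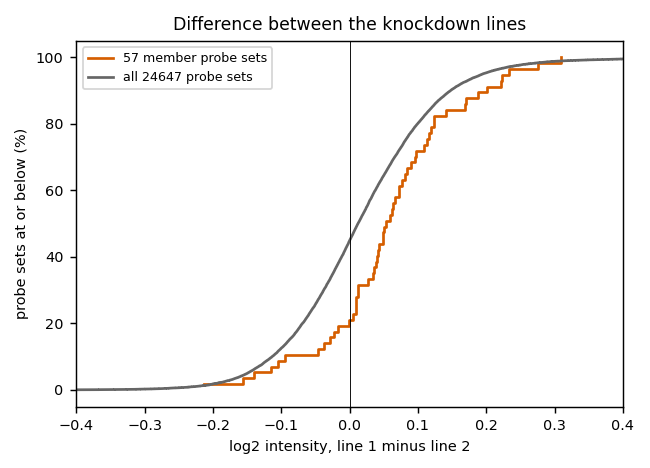
Cumulative share of probe sets (y axis, percent) by the log2 intensity of line 1 minus line 2 (x axis), for the 57 member probe sets in orange and all 24647 in grey. The member curve runs to the right of the grey one around 0, with 78.9% of the members and 55.1% of all probe sets above 0.

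Other genes of the pathway, in 8 further lists, gave calls in both directions, to be read against the 11.4% of all probe sets that rose and the 3.97% that fell. Among 24 probe sets for peroxisomal beta-oxidation, which shortens very long and branched chains, 5 rose (20.8%) and 1 fell (4.17%). Of those that rose 2 were at least 1.5-fold higher in both lines (8.33% of the list, background 1.43%). With so few probe sets a list, these shares are descriptions without a test. ABCD3, a peroxisomal importer of acyl-CoA, had 2238 in line 1 and 2141 in line 2, against 1211 in the control (log2 difference 0.85 ± 0.08 SE; limma adjusted p = 0.001), and 1 of its other 3 probe sets also rose (0.36). EHHADH, the peroxisomal bifunctional enzyme, had 609 in line 1 and 565 in line 2, against 333 in the control (log2 difference 0.81 ± 0.08 SE; limma adjusted p = 0.0012), and its other probe set stood at 0.12 without a call. ACOX2, an oxidase of branched chains and bile acid precursors, fell to 411 in line 1 and 385 in line 2, against 577 in the control. HSD17B4, which follows the oxidases, rose on 2 of 3 probe sets (log2 differences 0.37 and 0.42).

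Among 24 probe sets for branched-chain and propionyl-CoA breakdown in mitochondria 3 rose (12.5%), a share near the background. HIBCH, a hydrolase of valine breakdown, had 965 in line 1 and 880 in line 2, against 621 in the control. MMUT, the methylmalonyl-CoA mutase, rose on 1 probe set (log2 difference 0.57), while its others stood at -0.24 and 0.11. MCCC1, of leucine breakdown, likewise rose on 1 (0.51), with others at -0.09 and 0.11.

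Among 31 probe sets of further regulators 3 rose (9.68%), below the share over all probe sets. They were those of the coactivator subunit MED1 (log2 difference 0.50), the deacetylase SIRT1 (0.47) and PRKAA1, a catalytic subunit of AMP-activated kinase (0.41). MED1 and PRKAA1 each had another probe set below control in both lines. Of 21 probe sets of other PPAR-alpha target genes 2 rose, both among the 5 of TXNIP (0.34 and 0.35), and 3 fell, or 9.52% and 14.3%. These were the pair of FABP1 (-0.39 and -0.43) and 1 of 3 of CREB3L3 (-0.28), a membrane-bound transcription factor of liver and gut.

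Of 28 probe sets for fatty acid synthesis and desaturation 3 rose (10.7%) and 2 fell (7.14%). ACLY, which makes cytosolic acetyl-CoA, rose on 1 of 2 (0.40), as did both probe sets of the malic enzyme ME1 (0.31 each), whereas fatty acid synthase FASN (-0.40) and the elongase ELOVL7 on 1 of 2 (-0.27) fell. Riboflavin and flavoprotein support gave 1 riser of 6 probe sets, the riboflavin kinase RFK (0.53), and 1 faller, the riboflavin transporter SLC52A2 (-0.28). Carnitine and acyl-CoA handling had 2 risers of 19 (10.5%), ACOT7 (0.28) and ACSM3 on 1 of 2 (0.30). In the list of ketone body synthesis, use and transport 2 of 9 genes, BDH2 and AACS, passed the filter and neither was called.

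**Figure D5:**
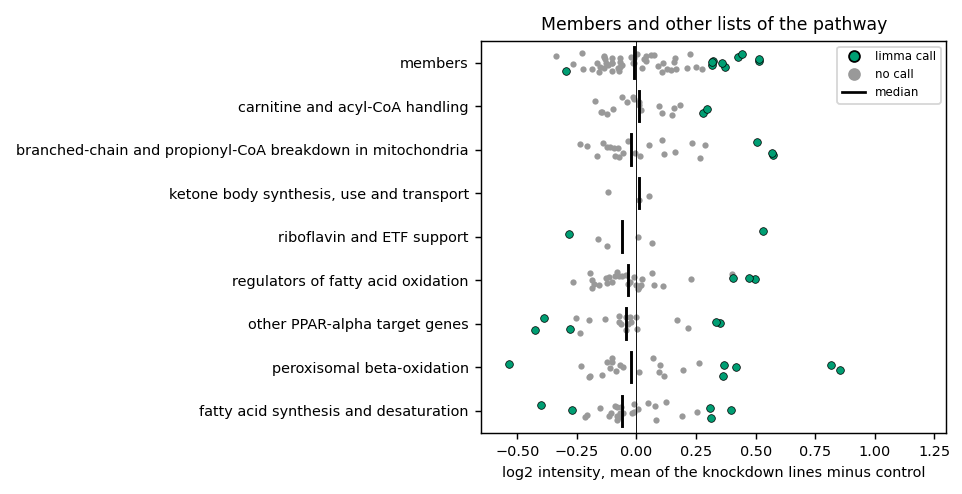
Each dot is a probe set past the filter, placed by the log2 intensity of the mean of both knockdown lines minus control, for the members and 8 other lists; green dots passed limma and black bars are medians. The members' median is -0.01, and the dots farthest right, at 0.85 and 0.81, are the peroxisomal genes ABCD3 and EHHADH.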

How the data were processed

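Total RNA was amplified to biotin-labelled cRNA, per the labels' protocols, and read on 1-colour arrays. The authors' deposited table gives linear intensity values (50.1 to 19619). RMA is named in the submitters' processing notes without version or settings, so scaling and background steps are not given in the sources used here. Here log2 of each deposited intensity was taken, with no further normalization. Gene symbols came from the array's annotation, and 44961 of 44988 single symbols were matched by identifier to RefSeq GRCh38.p14 (0 changed). A probe set with several symbols was left unnamed. Promoters are RefSeq's, of the same build. Groups came from sample titles.

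Both knockdown arrays were set against the control in limma 3.58.1 under R 4.3.3, by lmFit then eBayes. Tests were two-sided with Benjamini-Hochberg adjustment over 24647 probe sets, on 1 residual and 8.7 total degrees of freedom. Identical probe sets of a member counted once. On simulated data for this comparison limma found 99 of 100 probe sets changed by log2 0.7, 100 of 100 changed by 1.2 and called 14 of 24447 unchanged ones, and the 1.5-fold rule 83, 100 and 0. The noise of all 3 simulated arrays, the control included, was drawn from the difference between the hairpin arrays. No shift of a whole array was put in. The simulation therefore cannot show how many false calls arise where the lone control varies otherwise. Alternatives were other filters, normalizations, background correction, moderation settings, fold thresholds, ways to combine probe sets, and leaving out each knockdown array.

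Named with values were members called by limma or by size, 14 preset members, and up to 4 called genes in each wider list. Other members are accounted for more briefly. The members and lists were chosen with earlier results of these data known. Tables and figures were made in Python 3.11.15, pandas 2.3.3 and matplotlib 3.10.9.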

Additional observations from a re-analysis of the deposited data

How the results depend on the processing

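Combining the probe sets of a gene changed the counts of limma calls, in part because genes and no longer probe sets are then counted. As deposited the 9 member probe sets that rose came from 4 of 28 genes. With the brightest probe set per gene 3 of 28 members rose, and with a gene's probe sets averaged 1 of 25 (HADHB), where 9.64% and 6.96% of all genes rose. With that average 0 members fell in limma. At an unadjusted limma p under 0.05, 4 members were higher and 3 lower, and the shares over all genes at that threshold are not given here. Quantile normalization gave 2 and cyclic loess 3 lower member probe sets, where 6.57% and 5.58% of all probe sets fell. Lowering the size rule to 1.3-fold called 3 member probe sets higher and 0 lower. The share of all probe sets at 1.3-fold is not given here, so these counts have no background to be read against. The median log2 difference for the mean of both lines was -0.01, and -0.022 with no filter, 0.065 with the filter at the 75th percentile, 0.004 after quantile normalization, 0.024 after cyclic loess and -0.026 when each gene's probe sets were averaged. Leaving out either knockdown array gave 0.002 to 0.008, without a test. Line 2 was below line 1 for 23 of 28 genes by the brightest probe set and 22 of 25 by the mean. Over all genes the shares were 52.3% and 54.7%. This count was added with its alternatives after seeing the data. For single members, calls were lost with averaged probe sets for ACADM, ACADSB and ACAD9 and with the brightest probe set for ACADSB, and ACSL4 had no value with averaging. ACSL1, ECHS1, ETFA and ETFB gained a call under the alternatives named with them. The other 174 tested values, 1 per named probe set and alternative with a gene's value repeated for each of its probe sets, neither lost nor gained one, and no tested value changed sign. Leaving out a knockdown array has no test, and there 1 of 44 values changed sign, BDH1 without line 2 (0.01, against -0.08). No paired analysis was possible because the control is a single array and the groups share fewer than 2 replicate numbers. Precision is limited by 1 array per hairpin, and 38 member probe sets were too dim to be compared.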
